A study of Mus musculus with 9 samples.

Results

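The genes described here are the 38 named genes of the actin cytoskeleton and of the type regulated by SRF, followed over the 3 groups of the series. Every entry of the count table whose gene name was on the list is a member, whatever its values. The list itself was drawn up with earlier results of these data known. Shares of the members called, set beside those of all genes, are therefore descriptive only. All 38 were found among the 58735 genes of the table, and all 38 were among the 15492 genes that passed the filter on low counts. By role they fall into 3 actins, 4 cross-linkers, 5 genes of the calponin and transgelin family, 4 myosin genes, 5 genes for tropomyosins and caldesmon, 10 for focal adhesion and LIM domain proteins, 6 for filament assembly and turnover, and the regulator SRF itself.

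RNA came from Caki, an established human cell line from a clear cell carcinoma of the kidney, carrying 1 of 3 retroviral constructs. The MX group carried the empty control vector MXIV, the YAP1 group a vector for the wild type protein. In the YAP1-S127A group the vector encoded YAP1 in which a serine is replaced by alanine, a form the labels call constitutively active. Cells of all 3 groups, the controls included, had been selected with G418, and each group had 3 libraries. Separate cultures or transductions are not mentioned for libraries sharing a group, nor whether each line was a pool or a single clone, so the p-values below measure only the spread between libraries, which may be technical. The labels give mouse as the organism, whereas the deposited identifiers are those of human Ensembl genes.

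Actin filaments are polymers of actin subunits that proteins such as profilin, cofilin and the formins build up or take down. Cross-linkers and tropomyosins shape the filaments into bundles and networks, non-muscle myosin pulls on them, and vinculin, talin, zyxin and paxillin tie their ends to the matrix at focal adhesions. SRF is a transcription factor that binds the promoters of many of these genes. Its coactivators MRTFA and MRTFB bind free actin subunits and reach the nucleus when that pool is used up. YAP1 is a coactivator of the TEAD factors in the Hippo pathway; its activity is known to depend on cell tension, and several cytoskeleton genes are known targets of either pathway. Transgelin, calponin 1 and alpha smooth muscle actin are best known from smooth muscle and myofibroblasts, while beta and gamma actin serve nearly every cell, including the kidney epithelium from which this line derives.

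Total counts ran from 15789722 to 24811150 per library, and the members held between 1.95% and 3.11% of them. YAP1 transcripts, in which the introduced copy and the cell's own cannot be told apart, were 12.2-fold higher in the YAP1 group than in MX and 6.89-fold higher in the YAP1-S127A group. They were thus fewer with YAP1-S127A than with wild type YAP1 (log2 fold change -0.83, edgeR adjusted p = 0.00383). Mitochondrial genes took 1.90 to 6.60% of counts in MX, 3.50 to 11.4% with YAP1 and 7.40 to 29.6% with YAP1-S127A, where replicate 2 was the lowest. Of the counts outside mitochondrial genes, the members took 2.76% ± 0.124 in MX, 2.93% ± 0.255 with YAP1 and 2.72% ± 0.192 with YAP1-S127A (SD, n = 3 each), ranges that overlapped. Single libraries leaned one way for many members at once: YAP1 replicate 1 was the highest of its group for 26 of 38, YAP1-S127A replicate 2 the highest for 25 and YAP1-S127A replicate 3 the lowest for 29.

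The members spanned about 4 orders of magnitude in level. Levels between genes are compared per length, as CPM (counts scaled to a common library size, with TMM factors) divided by the kilobases of the gene model. Gamma actin ACTG1 led with 2573 ± 158 CPM per kb in MX (SD, n = 3), followed by beta actin ACTB at 1361 ± 199. The monomer-binding PFN1 stood at 527 ± 65.7 and TAGLN2, the transgelin of non-muscle cells, at 484 ± 82.3. PFN1 and TAGLN2 did not differ beyond their spread. At the other end, TAGLN stood at 1.93 ± 0.451, CDC42EP3 at 1.54 ± 0.256 and CNN1 at 0.218 ± 0.0873 CPM per kb in MX. Alpha smooth muscle actin ACTA2 was also scarce, at 3.27 ± 0.461 CPM per kb. The coefficient of variation between libraries of a group had a median over members of 12.2% in MX, 8.76% with YAP1 and 10.3% with YAP1-S127A.

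**Figure D1:**
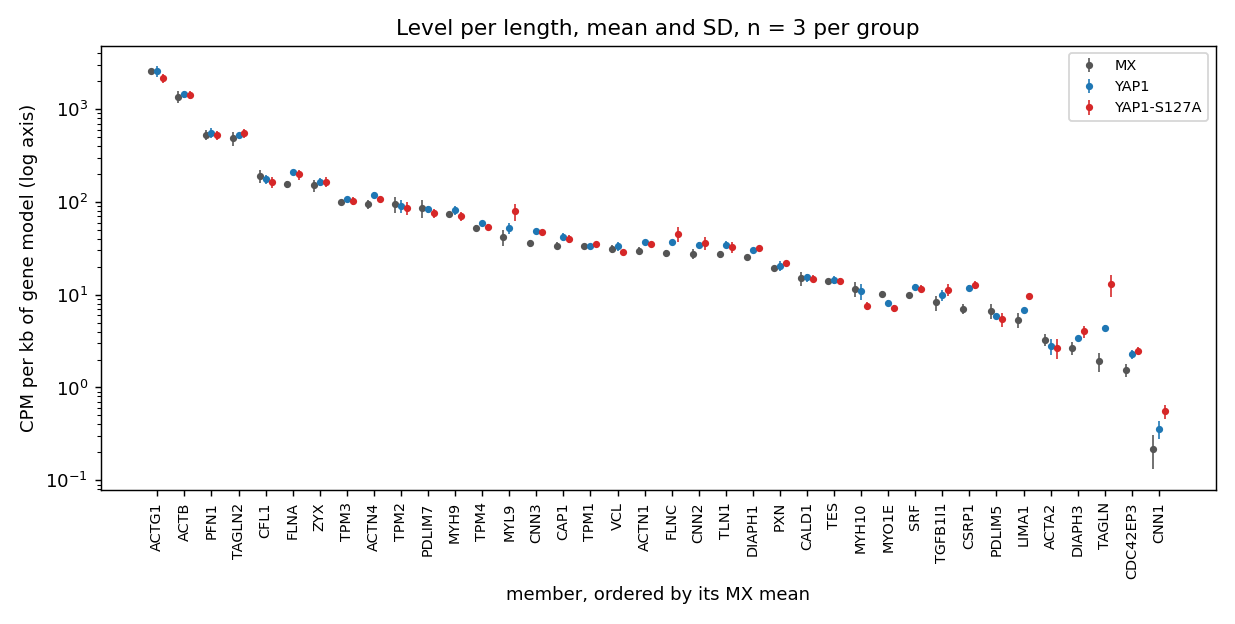
Level of each of the 38 members in CPM per kb of gene model (log axis), ordered by the MX mean; points are group means and bars the SD over 3 libraries. Most members have 3 points close together, and the 3 points lie farthest apart for TAGLN.

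Against the empty vector, a minority of the members changed, nearly all of those that did were higher, and the abundant actins were not among them. With wild type YAP1, 4 of 38 members were called higher by edgeR's quasi-likelihood test (adjusted p under 0.05) and 0 lower: TAGLN, CSRP1, CDC42EP3 and CNN3. Over all tested genes 6.81% were called in that comparison (3.23% higher and 3.58% lower), beside a share of 10.5% of the members. At an unadjusted p under 0.05 there were 15 members higher and 1, MYO1E, lower, beside 3063 of the 15492 tested genes in either direction. DESeq2 called 8 members higher and limma-voom 5, beside 1246 and 1063 of those genes in either direction. Neither called any member lower. With YAP1-S127A, 14 members were called, 12 higher and 2 lower, which is 36.8% of the members beside 18.4% of all tested genes (9.53% higher and 8.84% lower). The higher members were TAGLN, CNN1, MYL9, CSRP1, LIMA1, FLNC, CDC42EP3, DIAPH3, TGFB1I1, CNN3, CNN2 and DIAPH1, and the lower ones MYH10 and MYO1E.

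The sizes were small for most members. The median log2 fold change over the 38 was 0.15 with YAP1 and 0.16 with YAP1-S127A, beside -0.0036 and -0.0045 over all tested genes. TAGLN alone was called at 2-fold or more with YAP1, beside 2.57% of all tested genes, and TAGLN and CNN1 were with YAP1-S127A, beside 6.22%. Both comparisons use the same MX libraries, and MX replicate 1 was the lowest of its group for 20 of 38 members. The libraries of the 2 groups did not overlap for 17 members in the YAP1 comparison (16 higher, 1 lower) and for 19 in the YAP1-S127A comparison (16 higher, 3 lower). The background shares for that looser criterion were 24.1% and 32.6% of all tested genes. All 3 groups were apart, rising from MX over YAP1 to YAP1-S127A, for 4 members (TAGLN, FLNC, LIMA1 and DIAPH3) beside 2.52% of all genes, and falling for 1 (MYO1E) beside 2.18%.

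In the YAP1-S127A libraries the mitochondrial share was high, and the scaling bears on the direction of the weaker members. When libraries were scaled by their total counts in place of TMM, the median over all tested genes moved to -0.28 in YAP1-S127A against MX, to -0.20 in YAP1-S127A against YAP1 and to -0.076 in YAP1 against MX. Genes called higher and lower were then 611 and 3836, 113 and 503, and 311 and 679, in place of 1476 and 1369, 175 and 130, and 500 and 555. Among the members, YAP1-S127A against MX then gave 6 higher and 8 lower in place of 12 and 2. The higher calls of CNN2, CNN3, TGFB1I1, DIAPH1, DIAPH3 and CDC42EP3 were lost. Called lower in addition were ACTA2, ACTG1, VCL, PDLIM5, PDLIM7 and CFL1. Relative to the median of all genes the members lay at 0.17 under that scaling, the distance they have under TMM when rounded. The changes below are on the TMM scale.

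**Figure D2:**
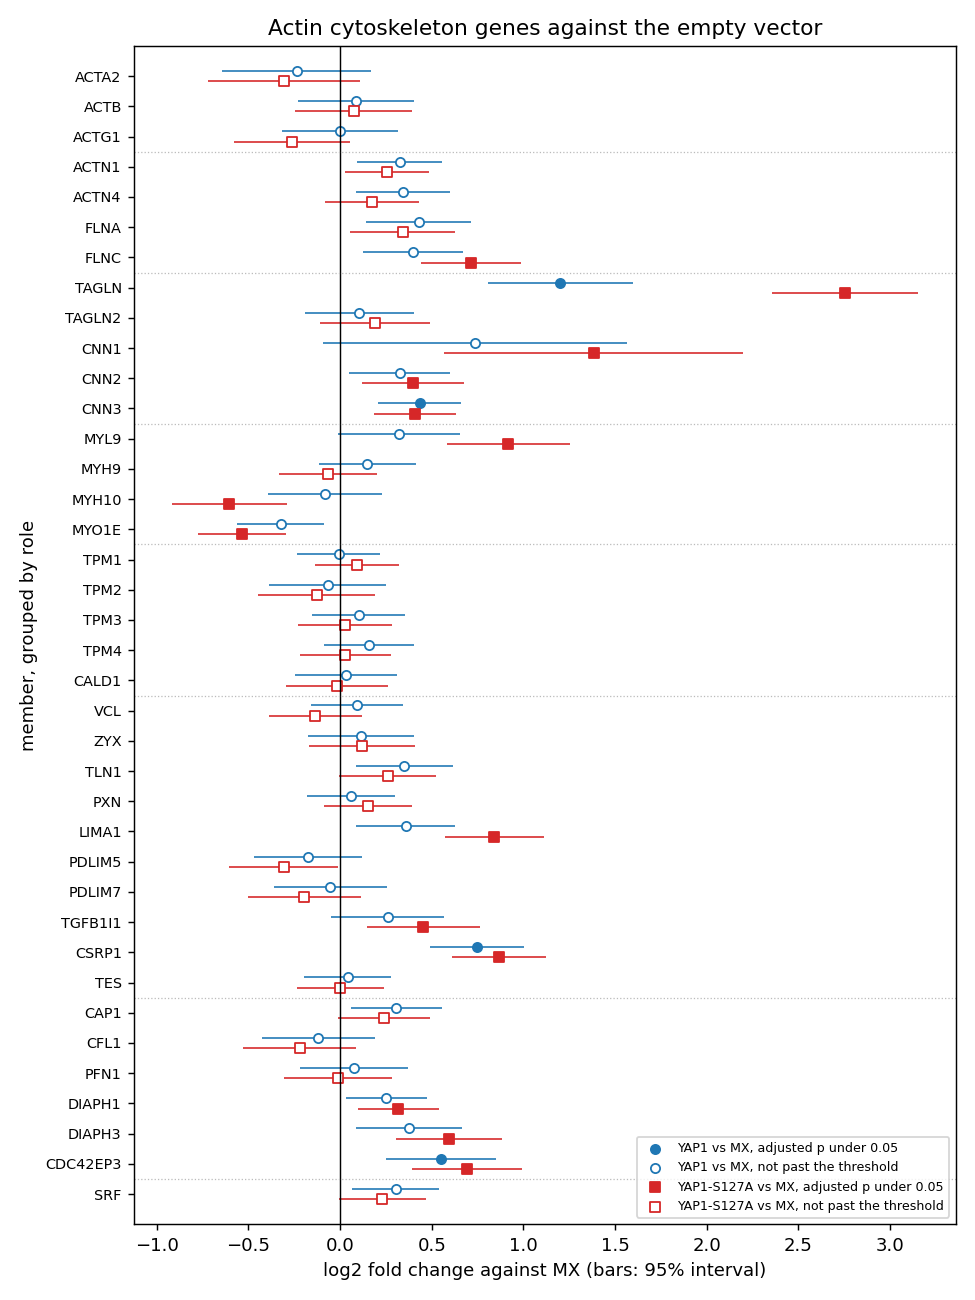
Log2 fold change of each member against MX with its 95% interval, for YAP1 (circles) and YAP1-S127A (squares); filled symbols passed an adjusted p of 0.05 and dotted lines separate the roles. TAGLN stands far to the right of the rest, and the actins and tropomyosins straddle 0.

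The 3 actins, which form the filament itself, gave no call against the empty vector. ACTB was at 3986, 5273 and 5114 CPM in MX replicates 1 to 3, at 5599, 4964 and 4695 CPM with YAP1 and at 4976, 5541 and 4612 CPM with YAP1-S127A. ACTG1 stood at 7182, 7821 and 8104 CPM in MX, at 8857, 7271 and 6971 with YAP1 and at 6531, 7032 and 5707 with YAP1-S127A. The ACTB groups overlapped throughout, whereas every YAP1-S127A library was below every MX library for ACTG1. That difference was a log2 fold change of -0.26 (95% interval -0.58 to 0.055) with an edgeR adjusted p of 0.256. ACTA2, the smooth muscle actin that marks myofibroblasts, ranged from 5.83 to 11.2 CPM over all 9 libraries with overlapping groups, and its log2 fold changes were -0.24 (adjusted p = 0.565) and -0.31 (adjusted p = 0.317). None of the 3 reached an unadjusted p of 0.05 in edgeR or an adjusted p of 0.05 in DESeq2 or limma-voom. Under total-count scaling ACTA2 and ACTG1 were called lower with YAP1-S127A, at -0.57 (adjusted p = 0.0297) and -0.53 (adjusted p = 0.0318).

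Of the cross-linkers, FLNC, the filamin best known from striated muscle, was called, while the more abundant FLNA and the actinins were close to the threshold with wild type YAP1. FLNC stood at 242, 250 and 282 CPM in MX, at 336, 338 and 348 CPM with YAP1 and at 353, 507 and 411 CPM with YAP1-S127A. The 3 groups did not overlap, and the spread was widest with YAP1-S127A. With that construct FLNC was 1.64-fold higher than MX (log2 fold change 0.71, SE 0.13, adjusted p = 0.000633). With wild type YAP1 it was at 0.40 with an adjusted p of 0.0764. FLNA, the main filamin of non-muscle cells, stood at 1527, 1612 and 1817 CPM in MX, at 2278, 2090 and 2305 CPM with YAP1 and at 1907, 2373 and 1998 CPM with YAP1-S127A. All 6 libraries with a YAP1 construct were above all 3 MX libraries. Its log2 fold changes were 0.43 with YAP1 (adjusted p = 0.0678) and 0.34 with YAP1-S127A (adjusted p = 0.0914).

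ACTN1 and ACTN4 are the alpha-actinins that bundle antiparallel filaments. ACTN1 ranged from 289 to 342 CPM in MX, from 388 to 403 with YAP1 and from 375 to 383 with YAP1-S127A, so that the MX libraries were below all others. ACTN4 ranged from 520 to 641, from 685 to 796 and from 637 to 670 CPM, and overlapped between MX and YAP1-S127A only. Their adjusted p with YAP1 were 0.0907 and 0.107. None of the 4 cross-linkers passed edgeR's adjusted threshold with wild type YAP1, all 4 had an unadjusted p under 0.05, DESeq2 called all 4 and limma-voom called FLNA.

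The calponin and transgelin family, actin-binding proteins that share a calponin-type domain, held the member with the greatest fold change. TAGLN, or SM22, is a textbook smooth muscle gene and SRF target. It stood at 6.03, 9.49 and 7.18 CPM in MX, at 16.7, 18.8 and 16.1 CPM with YAP1 and at 44.0, 66.2 and 41.3 CPM with YAP1-S127A. The 3 groups were well apart, and the lowest YAP1-S127A library was above the highest YAP1 library. TAGLN was 2.30-fold higher with YAP1 (95% interval of the log2 fold change 0.81 to 1.60, adjusted p = 0.000441) and 6.75-fold higher with YAP1-S127A (2.76, SE 0.19, adjusted p = 1e-08). Using only YAP1-S127A replicate 2, the library with the lowest mitochondrial share of that group, the log2 fold change of TAGLN against MX was 3.14. That library also had the highest TAGLN level of its group. With the mitochondrial share as a covariate the log2 fold change was 3.08 (edgeR adjusted p = 1.18e-08).

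CNN1, calponin 1, is a second smooth muscle gene, and it was barely detected. Its raw counts were 16, 15 and 11 in MX, 24, 18 and 18 with YAP1 and 20, 30 and 26 with YAP1-S127A. In CPM these were 0.570, 0.907 and 0.413, then 1.24, 1.02 and 0.799, then 1.53, 1.90 and 1.37. The YAP1-S127A libraries were above all MX libraries, and the YAP1 libraries overlapped MX. With YAP1-S127A the log2 fold change of CNN1 was 1.38 with a wide interval, 0.57 to 2.20 (adjusted p = 0.0171). The call was lost without MX replicate 3 (1.14, adjusted p = 0.0881) or without YAP1-S127A replicate 2 (1.23, adjusted p = 0.0723). It was also lost with the mitochondrial share as a covariate (1.61, edgeR adjusted p = 0.0638). With YAP1-S127A replicate 2 alone CNN1 was at 1.63.

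CNN3, the acidic calponin of non-muscle cells, stood at 104, 92.2 and 109 CPM in MX, at 138, 139 and 135 CPM with YAP1 and at 135, 132 and 138 CPM with YAP1-S127A. The constructs overlapped each other, and each was above all MX libraries. The log2 fold changes were 0.43 (SE 0.11, adjusted p = 0.0171) and 0.41 (SE 0.11, adjusted p = 0.0112). The YAP1 call was lost without MX replicate 2 (adjusted p = 0.0725), YAP1 replicate 2 (0.0748) or YAP1 replicate 3 (0.0629), and the YAP1-S127A call with replicate 2 of that group alone (0.37, adjusted p = 0.214) and with the mitochondrial share as a covariate (0.42, adjusted p = 0.127). CNN2, calponin 2, ranged from 87.0 to 110 CPM in MX, from 119 to 137 with YAP1 and from 111 to 155 with YAP1-S127A. Its call with YAP1-S127A was at 0.40 (adjusted p = 0.0430), and leaving out any library but MX replicate 2 or YAP1-S127A replicate 3 ended it, with adjusted p from 0.0509 to 0.241. TAGLN2, far more abundant than TAGLN, ranged from 968 to 1335 CPM in MX and from 1282 to 1541 CPM with YAP1-S127A, with a log2 fold change of 0.19 (adjusted p = 0.396).

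**Figure D3:**
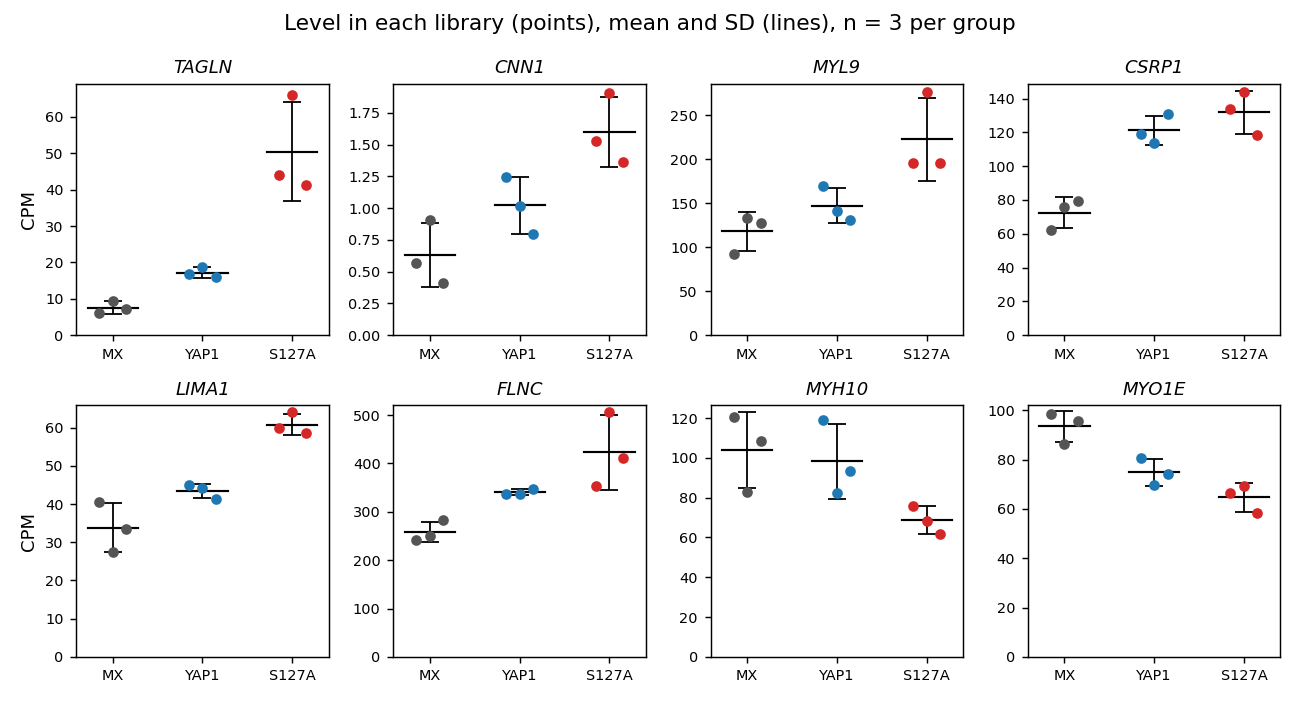
CPM in each library (points) with group mean and SD (lines, n = 3) for 8 members called with YAP1-S127A; each panel has its own axis from 0. TAGLN, LIMA1, FLNC and MYO1E show 3 groups that do not overlap, and the top YAP1-S127A library is replicate 2 in every panel except MYH10.

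The myosin genes split. MYL9, the regulatory light chain whose phosphorylation switches on non-muscle and smooth muscle myosin, was higher with YAP1-S127A. MYL9 stood at 92.4, 134 and 128 CPM in MX, at 170, 142 and 131 CPM with YAP1 and at 196, 277 and 195 CPM with YAP1-S127A. The YAP1-S127A libraries were above all 6 others, while MX and YAP1 overlapped. The log2 fold changes were 0.92 (SE 0.16, adjusted p = 0.000459) with YAP1-S127A and 0.32 (adjusted p = 0.275) with YAP1. With YAP1-S127A replicate 2 alone, the highest library of its group for MYL9, the difference from MX was 1.23.

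MYH10, the heavy chain of non-muscle myosin IIB, moved the other way. It stood at 121, 83.0 and 108 CPM in MX, at 119, 82.2 and 93.6 CPM with YAP1 and at 75.6, 68.4 and 61.7 CPM with YAP1-S127A. All 3 YAP1-S127A libraries were below all others, and MX and YAP1 were alike in level and in spread. The log2 fold change with YAP1-S127A was -0.60 (SE 0.15, adjusted p = 0.00765), a call that was lost without replicate 3 of that group (-0.52, adjusted p = 0.0596) and, at a like size, with replicate 2 alone (-0.61, adjusted p = 0.125). MYO1E, a long-tailed class I myosin that links actin to membranes, stood at 98.6, 86.5 and 95.7 CPM in MX, at 80.6, 69.6 and 74.4 CPM with YAP1 and at 66.7, 69.3 and 58.2 CPM with YAP1-S127A. The groups stepped down without overlap. MYO1E was at -0.32 with YAP1 (adjusted p = 0.101) and fell by 0.53 on the log2 scale with YAP1-S127A (SE 0.11, adjusted p = 0.00246), but with replicate 2 of that group alone it was at -0.44 with an adjusted p of 0.157. MYH9, the heavy chain of myosin IIA and the main one here, ranged from 569 to 830 CPM over all libraries, and its log2 fold changes were 0.15 (adjusted p = 0.588) and -0.067 (adjusted p = 0.771).

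Tropomyosins lie along the filament and set which proteins can reach it, and caldesmon restrains myosin on it. None of these 5 genes was called in any comparison or under any alternative setting, and none had an unadjusted p under 0.05. TPM1 was among the steadiest members, at 432, 430 and 424 CPM in MX, at 430, 417 and 433 CPM with YAP1 and at 472, 470 and 430 CPM with YAP1-S127A. TPM3 ranged from 770 to 946 CPM, TPM4 from 420 to 536, TPM2 from 244 to 357 and CALD1 from 122 to 176. Their log2 fold changes lay between -0.068 and 0.16 with YAP1 and between -0.13 and 0.092 with YAP1-S127A. The bounds of the 95% intervals reached at most 0.40 with YAP1 for TPM4 and -0.45 with YAP1-S127A for TPM2.

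Among the 10 focal adhesion and LIM domain genes, 3 were called higher with YAP1-S127A and 1 of these also with wild type YAP1. CSRP1, a LIM protein that binds alpha-actinin and zyxin, stood at 62.1, 75.9 and 79.2 CPM in MX, at 119, 114 and 131 CPM with YAP1 and at 134, 144 and 118 CPM with YAP1-S127A. Both constructs lay above all MX libraries and overlapped each other. Its log2 fold changes were 0.75 (SE 0.12, adjusted p = 0.000585) and 0.87 (SE 0.12, adjusted p = 5.04e-05). LIMA1, or EPLIN, which stabilises filaments at cell junctions, stood at 40.4, 27.6 and 33.4 CPM in MX, at 44.9, 44.1 and 41.3 CPM with YAP1 and at 59.8, 64.0 and 58.6 CPM with YAP1-S127A. The 3 groups were apart, with a narrow gap between MX and YAP1 and a wide one above. LIMA1 was 1.79-fold higher with YAP1-S127A (log2 fold change 0.84, SE 0.13, adjusted p = 0.000108), and at 0.36 with YAP1 (adjusted p = 0.110), where it was called without MX replicate 1 (0.50, adjusted p = 0.00794).

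TGFB1I1, or Hic-5, a paxillin relative, ranged from 35.9 to 52.5 CPM in MX, from 47.2 to 61.6 with YAP1 and from 52.4 to 70.5 with YAP1-S127A. It was at 0.45 with YAP1-S127A (adjusted p = 0.0375) although the groups touched, and leaving out any of 5 libraries (replicates 1 and 3 of MX, replicate 2 of YAP1, and replicates 1 and 2 of YAP1-S127A) ended that call, with adjusted p from 0.0579 to 0.184. The other 7 were not called. TLN1, talin, which activates integrins, was at 0.35 with YAP1 (adjusted p = 0.114) and at 0.26 with YAP1-S127A (adjusted p = 0.173). VCL (vinculin), ZYX (zyxin), PXN (paxillin) and TES lay between 0.041 and 0.11 with YAP1 and between -0.14 and 0.15 with YAP1-S127A. The LIM and PDZ proteins PDLIM5 and PDLIM7 had negative values with YAP1-S127A, -0.31 (adjusted p = 0.144) and -0.19 (adjusted p = 0.402). PDLIM5 was called lower without MX replicate 2 (-0.44, adjusted p = 0.0347) or without YAP1-S127A replicate 1 (-0.47, adjusted p = 0.0381), and PDLIM7 without MX replicate 1 (-0.37, adjusted p = 0.0300).

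Of the 6 genes for filament assembly and turnover, 3 were called higher with YAP1-S127A and 1 of them with YAP1. DIAPH1 and DIAPH3 are formins, which nucleate and elongate unbranched filaments, and CDC42EP3 is a CDC42 effector that organises septins and actin. CDC42EP3 stood at 17.4, 13.0 and 17.8 CPM in MX, at 26.2, 23.8 and 20.9 CPM with YAP1 and at 23.7, 26.1 and 28.3 CPM with YAP1-S127A. Both constructs were above MX and overlapped each other. Its log2 fold changes were 0.55 (SE 0.14, adjusted p = 0.0234) and 0.69 (SE 0.14, adjusted p = 0.00200). The call with YAP1 was lost without MX replicate 2 (adjusted p = 0.0905), YAP1 replicate 1 (0.104) or YAP1 replicate 2 (0.0799). Under total-count scaling both calls were lost, at 0.48 with YAP1 (edgeR adjusted p = 0.0902) and 0.41 with YAP1-S127A (0.0637). DIAPH3 stood at 23.0, 17.2 and 19.2 CPM in MX, at 26.6, 24.2 and 26.4 CPM with YAP1 and at 26.9, 28.1 and 34.8 CPM with YAP1-S127A. The groups stepped up without overlap, though by a small margin between the constructs. DIAPH3 was at 0.60 with YAP1-S127A (SE 0.14, adjusted p = 0.00473) and at 0.37 with YAP1 (adjusted p = 0.120). Its YAP1-S127A value with replicate 2 alone was 0.50. The YAP1-S127A call was lost with the mitochondrial share as a covariate (0.60, edgeR adjusted p = 0.0787). With YAP1, DIAPH3 was called without MX replicate 1 (0.49, adjusted p = 0.0257).

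DIAPH1 was tight within groups, from 188 to 193 CPM in MX, from 223 to 233 with YAP1 and from 226 to 245 with YAP1-S127A. Its YAP1-S127A value of 0.32 was just past the threshold (adjusted p = 0.0406). Leaving out any library but MX replicate 1 or YAP1 replicate 1 ended the call, with adjusted p from 0.0630 to 0.123. The mitochondrial share as a covariate also ended it (0.25, edgeR adjusted p = 0.386). The monomer-binding and severing proteins were not called: PFN1 (profilin) was at 0.075 and -0.010, CFL1 (cofilin) at -0.12 and -0.22, and CAP1 at 0.31 (adjusted p = 0.141) and 0.24 (adjusted p = 0.180). CFL1 was called lower with YAP1-S127A under total-count scaling, at -0.48 (adjusted p = 0.0343).

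SRF itself stood at 39.1, 43.2 and 42.5 CPM in MX, at 47.3, 51.2 and 55.4 CPM with YAP1 and at 51.8, 50.4 and 44.2 CPM with YAP1-S127A. All 6 libraries with a construct were above the MX libraries by a small margin. The log2 fold changes were 0.30 (95% interval 0.067 to 0.54, adjusted p = 0.125) and 0.23 (-0.0078 to 0.47, adjusted p = 0.176), and no alternative setting brought a call. The 796 tested genes of chromosome 6, where SRF lies, had medians of 0.19 and 0.16 in the same comparisons, and the part of that shift in the SRF values was not tested. Of its partners, MRTFA was at 39.8, 44.7 and 46.9 CPM in MX, at 40.8, 34.3 and 37.5 CPM with YAP1 and at 38.7, 37.7 and 35.0 CPM with YAP1-S127A, with log2 fold changes of -0.22 (adjusted p = 0.300) and -0.24 (adjusted p = 0.166). MRTFB was at 35.4, 21.2 and 26.2 CPM in MX and at 22.2, 18.3 and 19.1 CPM with YAP1-S127A, where it was called lower at -0.48 (adjusted p = 0.0438). That call was lost without MX replicate 1 (-0.27, adjusted p = 0.195), and without each of the other libraries except MX replicate 2 and YAP1-S127A replicate 1, with adjusted p from 0.0517 to 0.153. MYOCD, the muscle-restricted partner, had 0 counts in every library.

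The direct comparison of the mutant with wild type YAP1 concerned TAGLN above all. By edgeR, 1 of 38 members was called higher with YAP1-S127A and 0 lower, 2.63% beside 1.97% of all tested genes (1.13% higher and 0.839% lower). TAGLN was 2.94-fold higher (log2 fold change 1.55, SE 0.18, adjusted p = 0.000164), and it kept that call under every alternative. Calls of at least 2-fold in either direction made up 0.8% of all tested genes. With YAP1-S127A replicate 2 alone, the library of its group with the highest TAGLN level, the log2 fold change was 1.93. At an unadjusted p under 0.05 there were 5 of 38 members, beside 1903 of all 15492 tested genes. These 5 were TAGLN, MYL9, LIMA1 and FLNC, which were higher, and MYH10, which was lower. LIMA1 was at 0.48 (95% interval 0.22 to 0.75, adjusted p = 0.0577), MYL9 at 0.60 (0.26 to 0.93, adjusted p = 0.0647), MYH10 at -0.52 (-0.83 to -0.21, adjusted p = 0.0918) and FLNC at 0.31 (0.043 to 0.59, adjusted p = 0.316). DESeq2 called LIMA1, MYL9 and MYH10 as well (adjusted p of 0.0208, 0.0210 and 0.0450), and so did edgeR with these 2 groups alone, whereas limma-voom called TAGLN only. Leaving out a library of the MX group, which is not in this comparison, also added calls: LIMA1, MYL9 and MYH10 without MX replicate 1 (adjusted p of 0.00848, 0.0140 and 0.0395), and LIMA1 and MYH10 without MX replicate 2 (0.0240 and 0.0436).

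For most members the difference between the constructs was bounded within 1.5-fold. That bound is wider than several called changes against MX, such as 1.35-fold for CNN3 with YAP1. The 95% interval lay within 1.5-fold either way for 32 of 38 members and included 0 for 33. An interval that leaves out 0 matches an unadjusted p under 0.05, which 1903 of all 15492 tested genes had. The share of all genes with an interval within 1.5-fold was not computed. The median log2 fold change over the 38 members was -0.054, beside 0.0056 over all tested genes. CSRP1, for example, was at 0.12 (-0.13 to 0.38), CNN3 at -0.025 (-0.25 to 0.20), CDC42EP3 at 0.14 (-0.16 to 0.44) and SRF at -0.073 (-0.31 to 0.17). The libraries of the constructs did not overlap for 10 members, 6 higher (TAGLN, FLNC, CNN1, MYL9, LIMA1 and DIAPH3) and 4 lower (ACTN1, ACTN4, MYH10 and MYO1E), beside 19.6% of all tested genes (10.3% higher and 9.34% lower).

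Shares within families put the minor isoform beside the major one in the same library, so that library scaling cancels. These shares, of counts per length, were chosen after the values had been seen, and 27 exact two-sided permutation tests were made, which with 3 libraries against 3 cannot go below p = 0.1 (adjusted p = 0.225). TAGLN made up 0.394, 0.449 and 0.347% of TAGLN plus TAGLN2 in MX, 0.809, 0.894 and 0.806% with YAP1 and 2.11, 2.65 and 2.00% with YAP1-S127A. The groups stepped up with no overlap, and TAGLN2 remained by far the main transgelin. FLNC made up 15.1% ± 0.150 of FLNA plus FLNC in MX, 14.9% ± 0.604 with YAP1 and 18.7% ± 1.12 with YAP1-S127A (SD, n = 3 each), apart only for the mutant. MYH10 made up 15.2, 11.6 and 13.6% of MYH9 plus MYH10 in MX, 12.5, 10.8 and 11.8% with YAP1 and 10.7, 8.85 and 9.78% with YAP1-S127A, which lay below all other libraries. ACTB made up 34.5% ± 2.23 of the pair with ACTG1 in MX, 36.0% ± 0.944 with YAP1 and 40.1% ± 0.710 with YAP1-S127A (SD, n = 3 each), again above all other libraries. For these shares of FLNC, MYH10 and ACTB, and for TAGLN, each test of YAP1-S127A against either other group gave that smallest exact p of 0.1. The ACTN1 share of the actinins was also above the others with YAP1-S127A, by 1.02 percentage points over MX and 1.24 over YAP1. The TPM1 share of the 4 tropomyosins was 12.8% with YAP1-S127A and 11.5% with YAP1, which did not overlap (exact p = 0.1), while both overlapped MX at 11.9%. The share of CNN3 among the calponins overlapped in every comparison, as did those of ACTA2 among the actins and of DIAPH3 among the 2 formins.

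**Figure D4:**
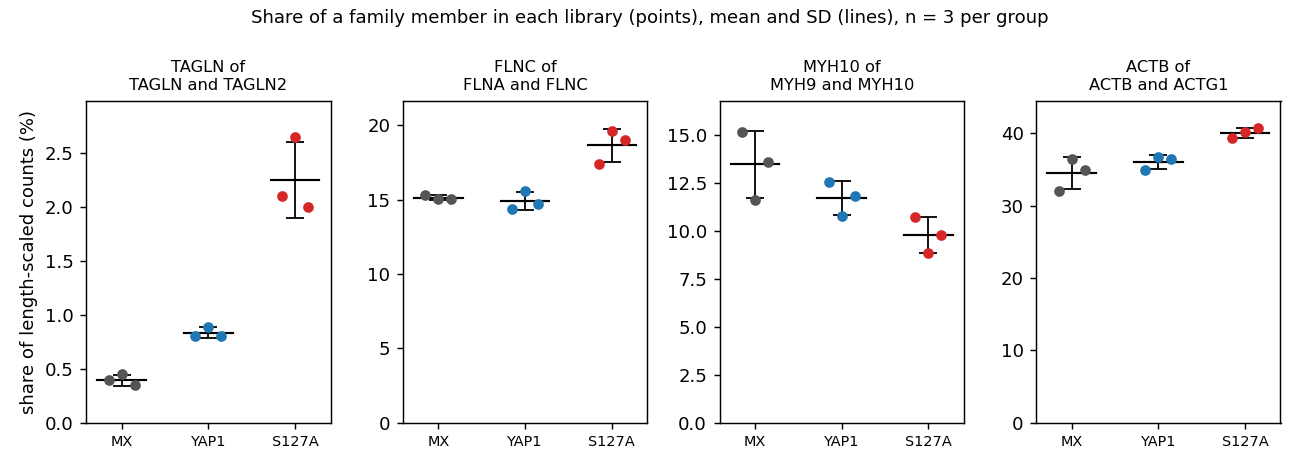
Share of a family member in the summed CPM per kb of its family, in percent, for each library (points) with mean and SD (lines, n = 3 per group). The mean TAGLN share is 0.397%, 0.837% and 2.25%, and the shares of FLNC, MYH10 and ACTB are set apart in the YAP1-S127A libraries.

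The wider pathway was followed in other genes of actomyosin control and adhesion. RND3, which opposes the kinase ROCK1, stood at 36.3, 34.6 and 37.9 CPM in MX, at 51.1, 56.6 and 53.9 CPM with YAP1 and at 82.7, 79.9 and 89.6 CPM with YAP1-S127A. Its 3 groups were apart by wide margins, with log2 fold changes of 0.57 (adjusted p = 0.00230) and 1.21 (adjusted p = 1.61e-07) against MX and of 0.64 (adjusted p = 0.00255) between the constructs. With YAP1-S127A replicate 2 alone, the RND3 difference between the constructs was 0.56 (adjusted p = 0.145). The light chains MYL12B and MYL6 were at 0.51 (adjusted p = 0.00491) and 0.60 (adjusted p = 0.0140) with YAP1-S127A, and the light chain kinase MYLK at 0.40 (adjusted p = 0.0193). The MYL6 call was lost without YAP1-S127A replicate 3 (adjusted p = 0.0658). The MYLK call was lost without MX replicate 2 (0.0863) or 3 (0.0612) and without YAP1-S127A replicate 2 (0.0545) or 3 (0.0607).

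Of 28 other genes of actin assembly and bundling, 4 were called higher and 2 lower with YAP1-S127A, and 1 higher with YAP1. These are 21.4% and 3.57% of the list, beside 18.4% and 6.81% of all tested genes, so the list was near its background. CFL2, the muscle-type cofilin, stood at 40.6, 45.3 and 40.4 CPM in MX, at 54.7, 57.2 and 52.8 CPM with YAP1 and at 76.6, 62.8 and 72.5 CPM with YAP1-S127A. Its groups stepped up without overlap, at 0.75 with YAP1-S127A (adjusted p = 0.000103), while CFL1 was not called. The YAP1 call of CFL2, at 0.38 (adjusted p = 0.0472), was lost without any of 7 libraries, namely MX replicates 1 and 3, YAP1 replicates 1 to 3 and YAP1-S127A replicates 1 and 3 (adjusted p from 0.0507 to 0.179). The bundling proteins PLS3 and FSCN1 were at 0.43 (adjusted p = 0.0104) and 0.51 (adjusted p = 0.0138) with YAP1-S127A, and EVL, of the Ena/VASP family, at -0.52 (adjusted p = 0.0104). Without YAP1-S127A replicate 3 the adjusted p of PLS3 and EVL were 0.0607 and 0.0626, and without YAP1-S127A replicate 2 that of FSCN1 was 0.103.

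Of 17 other focal adhesion genes, 5 were called higher and 1 lower with YAP1-S127A, and 2 higher with YAP1. These are 35.3% and 11.8% of the list, beside 18.4% and 6.81% of all tested genes. PDLIM1 was at 0.84 (adjusted p = 0.000245) and PALLD, palladin, at 0.55 (adjusted p = 0.00136) with YAP1-S127A. PALLD was also called with YAP1, at 0.41 (adjusted p = 0.0274), but lost that call without MX replicate 2 (0.102), MX replicate 3 (0.0903), YAP1 replicate 2 (0.122) or YAP1 replicate 3 (0.103). TNS1, tensin 1, fell by 0.75 on the log2 scale with YAP1-S127A against MX (adjusted p = 0.000478) and by 0.70 against YAP1 (adjusted p = 0.00639). The fall against YAP1 was lost without YAP1 replicate 3 (adjusted p = 0.0544) or YAP1-S127A replicate 3 (0.0686). With replicate 2 as the only library of the mutant, the calls against MX of MYL12B, MYL6, MYLK, PLS3, EVL and TNS1 were lost, with adjusted p from 0.0678 to 0.301. Their log2 fold changes were then 0.48, 0.54, 0.40, 0.41, -0.39 and -0.64.

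The immediate early genes, a class of SRF targets driven by growth signals through other partners, went in both directions. With YAP1-S127A 1 of 9 was called higher and 2 lower, and with YAP1 0 of 9 by edgeR. The share with YAP1-S127A was 33.3%, beside 18.4% of all tested genes (9.53% higher and 8.84% lower), and 6.81% of all genes were called with YAP1. In that comparison EGR2 and IER2 were the 2 with an unadjusted p under 0.05, and DESeq2 called IER2 lower (-0.59, adjusted p = 0.0334). FOSB stood at 1.39, 3.57 and 3.42 CPM in MX, at 3.26, 2.15 and 2.75 CPM with YAP1 and at 6.56, 7.04 and 5.04 CPM with YAP1-S127A. It was higher in the mutant than in both other groups, at 1.17 against MX (adjusted p = 0.00721) and 1.18 against YAP1 (adjusted p = 0.0411), the second being lost without any library of the YAP1 or YAP1-S127A groups (adjusted p from 0.0794 to 0.189). EGR2 stood at 1.89, 1.99 and 1.80 CPM in MX and at 0.915, 0.254 and 0.473 CPM with YAP1-S127A, a fitted log2 fold change of -1.82 (adjusted p = 0.00510). IER2 was at -0.70 (adjusted p = 0.0178), a call that was lost without MX replicate 1 (0.132), MX replicate 2 (0.0602) or YAP1-S127A replicate 2 (0.0664). FOS and EGR1 varied widely between libraries of a group, FOS from 3.53 to 16.5 CPM in MX and EGR1 from 25.3 to 114 CPM with YAP1-S127A.

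**Figure D5:**
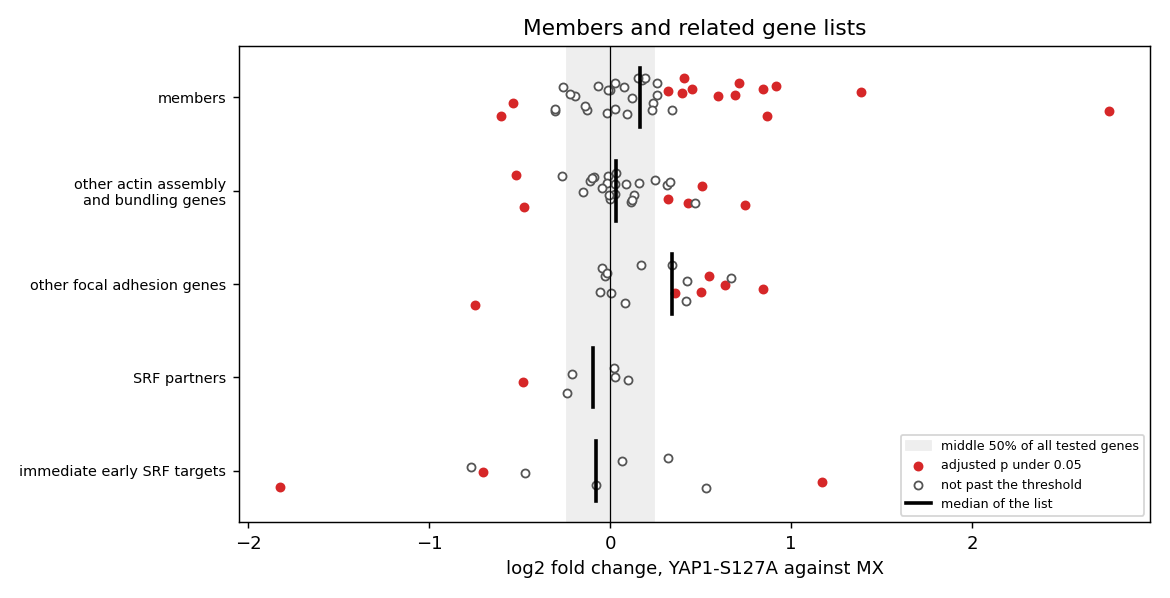
Log2 fold change of YAP1-S127A against MX for the members and for 4 related lists; each point is a tested gene, filled when its adjusted p was under 0.05, the vertical bars are list medians and the grey band holds the middle 50% of all tested genes. The members' median of 0.16 lies inside the band, and the called genes of each list lie outside it.

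Markers of other cell types bear on the smooth muscle type members. In bulk RNA, more cells of a type and more RNA per cell cannot be told apart. Of 9 smooth and striated muscle markers, 2 (SMTN and SYNPO2) were abundant enough to test and neither was called, though SYNPO2 was at -0.83 with YAP1 (unadjusted p = 0.00769, adjusted p = 0.0854 by edgeR). Their summed level was 52.6 to 68.2 CPM in MX, 62.3 to 76.5 with YAP1 and 60.3 to 64.2 with YAP1-S127A, nearly all of it SMTN. MYH11, the defining smooth muscle myosin, did not exceed 0.784 CPM in any library, and DES did not exceed 1.30. Of 9 fibroblast markers 6 were tested, of which 1 (LUM) was called higher with YAP1, 5 with YAP1-S127A and 4 between the constructs. These are 16.7%, 83.3% and 66.7% of the 6, beside 6.81%, 18.4% and 1.97% of all tested genes. The sum of the 9 markers, most of it COL1A1, was 774 to 1309 CPM in MX, 1337 to 1690 with YAP1 and 2147 to 3960 with YAP1-S127A, with no overlap, so that it moved in the same order as TAGLN. COL1A1 was at 1.60 with YAP1-S127A (adjusted p = 0.000103), COL1A2 at 6.68 (adjusted p = 0.000858) and LUM at 3.53 (adjusted p = 8.18e-08). PDGFRB was at 0.63 (adjusted p = 0.00579), lost without YAP1-S127A replicate 2 (0.43, adjusted p = 0.0568), and FAP, also called higher, did not exceed 1.46 CPM. DCN, the other tested marker, was not called, and of the 3 that were too scarce to test PDGFRA and THY1 did not exceed 0.178 and 0.570 CPM and COL3A1 did not exceed 5.65. Between the constructs the COL1A1 call was lost with DESeq2 (adjusted p = 0.0782) and with limma-voom (0.0789). That of COL1A2 was lost with these 2 groups only (edgeR adjusted p = 0.0967). Both were lost on leaving out any 1 library of the YAP1 group (edgeR adjusted p from 0.0817 to 0.213). The part of other cells in the TAGLN, CNN1 and MYL9 values was not tested.

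The labelled tissue was checked on 8 markers of kidney epithelium and renal carcinoma. PAX8, the renal lineage factor, was present at 228 to 312 CPM in every library and was not called, and the keratins KRT8 and KRT18 and VIM were abundant, while PAX2 was at or near 0. The cadherins CDH6 and CDH1 fell with YAP1-S127A, by 2.21 (adjusted p = 4.03e-10) and 1.93 (adjusted p = 3.6e-07) on the log2 scale, and KRT8 was higher at 0.65 (adjusted p = 0.0121). With wild type YAP1, 2 of the 7 tested markers were called lower, CDH1 among them at -0.65. That CDH1 call was lost without MX replicate 2 or YAP1 replicate 3 (edgeR adjusted p of 0.0714 and 0.162). Between the constructs 3 were called lower, KRT19 among them at -0.67. That KRT19 call was lost without any 1 of the YAP1 libraries (0.0609 to 0.128) and without YAP1-S127A replicate 1 (0.103) or 3 (0.174). It was also lost with the mitochondrial share as a covariate (-0.43, edgeR adjusted p = 0.407). The shares called were 28.6%, 42.9% and 42.9% (YAP1, YAP1-S127A, between), beside 6.81%, 18.4% and 1.97% of all genes. The endothelial and leukocyte lists did not sum to more than 1.78 and 1.63 CPM in any library.

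Several members overlap a gene on the opposite strand, and no source used here gives the strand setting of the counting, so reads of such pairs cannot be told apart with certainty. TAGLN, at 117199321 to 117204782 on the plus strand of chromosome 11 in the deposited annotation, overlaps PCSK7, whose counts came to 139% of those of TAGLN. PCSK7 was at 0.41, 0.42 and 0.012 in the 3 comparisons and was called in none. MYH10, at 8474205 to 8630761 on the minus strand of chromosome 17, overlaps NDEL1 (47.3% of the MYH10 counts), which was higher with YAP1-S127A at 0.39 (adjusted p = 0.0153) where MYH10 was lower. ACTA2 overlaps FAS and STAMBPL1, with 641% and 336% of its counts, and CAP1 overlaps PPT1 with 87.3%. Processed pseudogenes of members, which can share reads with them, held at most 0.922% of a member's counts (CAP1), and 0.705% for TPM3.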

How the data were processed

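The deposited values are whole-number read counts per gene, with 1 column for each of 9 libraries and a gene length beside them, as the authors deposited them. Stranded messenger RNA libraries were made per the labels' protocols. The submitters' processing notes name build GRCm39 and the tools Salmon 1.9.0, Cufflinks and HISAT2 without their roles, although the identifiers are human. No source used here gives the human build, annotation, counting program or strand setting. Columns were matched to samples by name, and 0 other columns of values were present.

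Genes passing edgeR's filterByExpr were scaled by TMM and fitted together over 9 libraries with group as the only term (edgeR 4.0.16, R 4.3.3, robust quasi-likelihood test). Two-sided tests of the 3 contrasts were adjusted by Benjamini-Hochberg over 15492 genes, and a call is an adjusted p under 0.05. Intervals are 95%. CPM use TMM-scaled totals, and CPM per kb the deposited length. Depth limits precision for CNN1 most, with 42 counts summed over MX. Libraries of a group differed by more than sampling noise. The code was tested on simulated data. The members and lists were chosen with earlier results of these data known. All members are accounted for: those called are given with values where results turn on them, and from each other list up to 4 called genes with the smallest p, plus MRTFA, MRTFB and YAP1. Others named were chosen after their values were seen. Alternatives were other scalings, filters, DESeq2 1.42.0, limma-voom (limma 3.58.1), a 1.2-fold minimum (glmTreat), pairs of groups, a replicate block, the mitochondrial share as a covariate, and leaving out each library. Chosen after seeing the data were YAP1-S127A replicate 2 alone and the family shares. Some results on related genes are not reported here.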

Additional observations from a re-analysis of the deposited data

How the results depend on the processing

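Of the calls on members, 2 of 4 with YAP1 (TAGLN and CSRP1), 5 of 14 with YAP1-S127A (TAGLN, CSRP1, FLNC, MYL9 and LIMA1) and 1 of 1 between the constructs (TAGLN) were kept under every alternative run, and no member changed sign while called. In YAP1 against MX the 1055 genes called became 668 with at least 50 counts in every library and 540 against a 1.2-fold minimum, and 601 to 1423 on leaving out a library. The 4 members called became 2 under total-count scaling, 8 with DESeq2, 7 with the mitochondrial share as a covariate and 2 against a 1.2-fold minimum, and 2 to 6 on leaving out a library. In YAP1-S127A against MX the 2845 genes became 4447 under total-count scaling, 1405 with the covariate, 1631 against a 1.2-fold minimum and 1278 with YAP1-S127A replicate 2 alone, which is assumed to vary like the other groups, and 1847 to 3079 on leaving out a library. The 14 members became 8 with the covariate and 7 with replicate 2 alone, and 10 to 14 on leaving out a library. Between the constructs the 305 genes became 616 under total-count scaling, 520 with no filter, 181 with at least 50 counts, 475 with DESeq2, 478 with these 2 groups only, 134 against a 1.2-fold minimum and 151 with replicate 2 alone, and 126 to 465 on leaving out a library. The 1 member became 2 under total-count scaling, with the covariate and with replicate 2 alone, 4 with no filter, DESeq2 or these 2 groups only, and 1 to 4 on leaving out a library. The cause was not tested.

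Replicate numbers are shared by the groups, but deviations of same-numbered libraries correlated between -0.178 and 0.204, over 0.1 in 1 of 9 pairs. In both other groups at once, 0 of 9 libraries correlated best with their own number, though some did in 1 other group. The numbers were not taken to pair the samples. With a replicate block the genes called were 1428, 3426 and 472, and the members 7, 14 and 4, in the order above.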
